A study of Mus musculus with 6 samples.

Results

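The genes of laminin chains and of the hemidesmosome were compared between JNK-deficient mammary tumor cell lines and primary mammary epithelial cells of the mouse. The 9 genes were chosen by name: 5 laminin chains (*Lama3*, *Lama5*, *Lamb1*, *Lamb3* and *Lamc1*) and 4 hemidesmosome genes (*Col17a1*, *Itga6*, *Itgb4* and *Dst*). Each was found as 1 entry among the 37753 entries of the expression table that hold values, and each was among the 12461 genes tested. The control group (MEC) was 3 preparations of primary mammary epithelial cells of genotype WAPCre+, each pooled from 3 to 5 virgin females aged 10 to 12 weeks and grown on collagen I. The MEKO group was 3 breast tumor cell lines of genotype Mapk8KO Mapk9KO Cre+, numbered 199, 233 and 336, which spent 2 passages on collagen I and were then moved to plain dishes. Both groups carry Cre driven by the *Wap* promoter, which is switched on by lactation in luminal epithelial cells, and both are on the C57/Bl6J strain. The study's list of animals gives an adenosquamous carcinoma for mouse 199, adenosquamous carcinoma and adenocarcinoma for mouse 233, and an adenocarcinoma for mouse 336. The paper takes the MEKO tumors from parous mice that were monitored for tumors after weaning, whereas the MEC females were virgin. The ages of mice 199, 233 and 336 are not given here. Genotype, parity, animal age, tumor origin and time in culture cannot be told apart in this comparison, and each line is 1 library.

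Laminins are secreted trimers of an alpha, a beta and a gamma chain, and they form the sheet of the basement membrane on which epithelial cells rest. Trimers that hold the alpha 3 and beta 3 chains are the adhesion ligand of stratified and glandular epithelia, whereas trimers that hold the alpha 5 chain are found beneath most epithelia. Hemidesmosomes are the anchors that hold basal epithelial cells to that sheet. In them the integrin of alpha 6 (*Itga6*) and beta 4 (*Itgb4*) chains and the transmembrane collagen XVII (*Col17a1*) bind laminin outside the cell, and plectin and dystonin (*Dst*) tie them to keratin filaments inside. In the mammary gland hemidesmosomes are known mostly from the basal, myoepithelial layer.

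Expression is given as FPKM, the number of sequenced fragments of a gene scaled by its length and by the size of the library, so that levels of different genes can be set side by side. Read totals are not part of the table and absolute depth is therefore unknown. The ratios between small values put the other libraries at 0.927 to 1.29 times the depth of MEC 1. *Mapk8* and *Mapk9*, which encode JNK, were at 19.2 to 25.1 FPKM in MEC. In lines 199, 233 and 336 *Mapk8* had 5.93, 3.12 and 1.37 FPKM, and *Mapk9* had 7.62, 3.15 and 3.07 FPKM. The luminal marker list (12 genes) summed to 5408 to 8965 FPKM in MEC and to 792 to 1970 FPKM in the lines, with *Krt8* at 1844 to 3406 and 230 to 539 FPKM and *Krt18* at 2240 to 3593 and 197 to 1181 FPKM. The basal list (9 genes) summed to 1570 to 2865 FPKM in MEC, to 2277 FPKM in line 199, and to 10.8 and 58.7 FPKM in lines 233 and 336. In line 199 *Krt5*, *Krt14* and *Trp63* were above the MEC range and *Krt17* was inside it. *Acta2*, *Cnn1*, *Mylk*, *Myh11* and *Oxtr* were below the MEC range in that line. They had 719, 16.8, 0.714, 0.0812 and 0.0125 FPKM, against at least 736, 47.6, 7.96, 22.4 and 5.05 FPKM in MEC. Fibroblast markers (8 genes) summed to 118 to 207 FPKM in MEC and to 1111, 2.43 and 4.23 FPKM in lines 199, 233 and 336. In line 199 *Col1a1*, *Col1a2*, *Col3a1* and *Pdgfrb* were above the MEC range (600, 408, 71.5 and 19.0 FPKM), *Dcn* (0.311 FPKM), *Lum* (0.0264 FPKM) and *Thy1* (11.1 FPKM) were below it, and *Pdgfra* was at 1.31 FPKM against at most 0.949 FPKM in MEC. The endothelial list (6 genes) summed to 18.9, 22.5 and 2.45 FPKM in MEC 1 to 3 and to 0.303, 0.209 and 2.06 FPKM in the lines. The leukocyte list (6 genes) summed to 5.17 to 8.90 FPKM in MEC and 0.945 to 24.9 FPKM in the lines, the muscle and nerve list (4 genes) to 1.19 to 7.02 and 0.240 to 0.688 FPKM, and the adipocyte list (4 genes) to at most 0.226 FPKM in any library.

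The difference shared by all 3 lines and past the test was in *Lamb3*, which encodes the beta 3 chain. *Lamb3* (chromosome 1 of GRCm38, 193207699 to 193343878) had 64.8, 70.9 and 40.8 FPKM in MEC 1 to 3, and 23.0, 5.70 and 2.90 FPKM in lines 199, 233 and 336. Every line lay below every MEC preparation, at 39.0%, 9.70% and 4.94% of the MEC mean. *Lamb3* fell from 58.8 ± 15.9 to 10.5 ± 10.9 FPKM (SD, n = 3), a log2 fold change of -2.77 on the log2(FPKM + 1) scale (standard error, SE, 0.65, adjusted p in limma = 0.0476). The exact permutation test, two-sided, gave p = 0.1, the smallest that 3 libraries against 3 allow. The call is near its limit: it was kept in 5 of 15 alternatives, over which the limma adjusted p ran from 0.00361 to 0.166. Summed entries per symbol and the adjusted p alone are among those 5, and they could not lose the call, since they leave its adjusted p unchanged. The call was lost without any 1 of MEC 1, MEC 2, MEC 3, line 233 or line 336 (limma adjusted p = 0.166, 0.159, 0.121, 0.119 and 0.0931). The log2 fold change of *Lamb3* stayed between -3.51 and -2.20. The span given, from GENCODE, overlaps *Hsd11b1* and *G0s2* on the opposite strand. It begins at 193207699, whereas the RefSeq promoter windows of *Lamb3* begin at 193301744 and 193301993. The paper does not give the gene model that was counted, so the overlap may not apply to these values. Whether the counting used strand is not given in the sources used here. *G0s2* had 10.7, 6.63 and 11.2 FPKM in MEC, and 0.0881 FPKM in line 199 and 0 in the others, and its part in the *Lamb3* values was not tested.

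*Lamb3* was the only 1 of the 9 genes past both limits, an adjusted p under 0.05 and a log2 fold change beyond 0.75 in limma. Among all tested genes 7.26% were called lower and 2.64% higher, a split of 73.3% lower to 26.7% higher among the called genes that became 62.1% to 37.9% with quantile normalization. No member was called higher in limma, and 1, *Lama5*, had an unadjusted p under 0.05 in that direction. The groups did not overlap in 2 members, *Lamb3* in the lower and *Lama5* in the higher direction, against 18.7% and 18.5% of all tested genes. The median log2 fold change of the 9 genes was -0.65, against 0.01 over all tested genes. In these bulk libraries fewer cells that express a gene and less of its RNA per cell cannot be told apart.

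**Figure D1:**
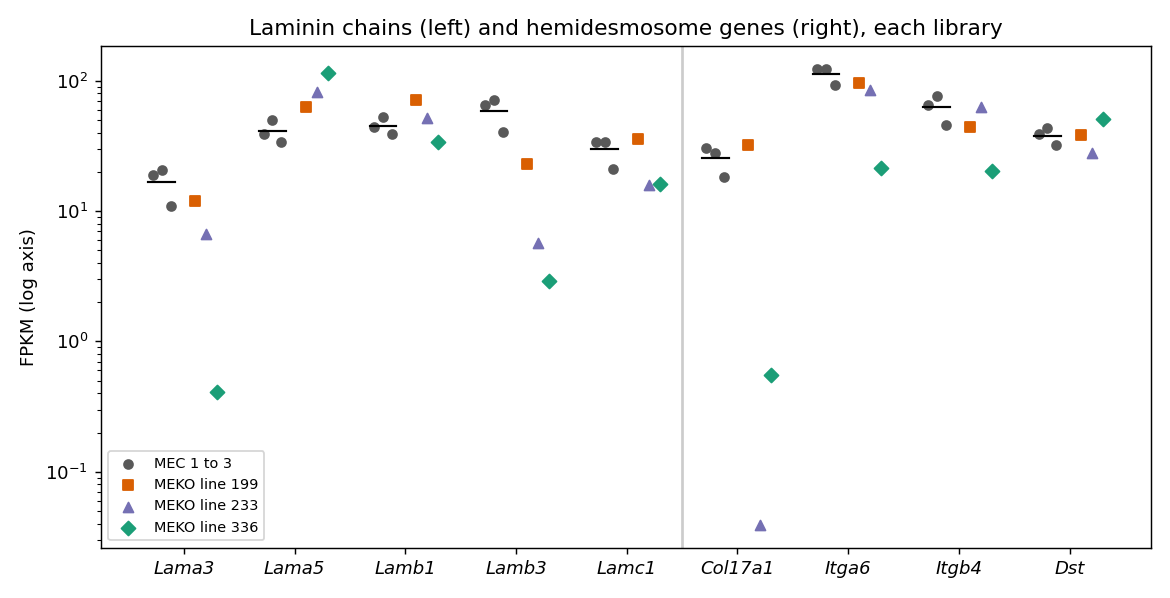
FPKM on a log axis of each of the 9 genes in each library, with MEC 1 to 3 as grey dots in order, their mean as a bar, and the MEKO lines as coloured symbols. *Lamb3* is below MEC in every line, *Lama5* is above MEC in every line, and *Col17a1* is at 0.0391 and 0.549 FPKM in lines 233 and 336.

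*Lama5*, which encodes the alpha 5 chain, was higher in every line, though short of the limit of the test. *Lama5* (chromosome 2, 180176373 to 180225859) had 38.8, 50.1 and 34.1 FPKM in MEC 1 to 3, and 62.9, 81.7 and 114 FPKM in lines 199, 233 and 336. Each line exceeded the highest MEC preparation. The means were 41.0 ± 8.22 and 86.2 ± 25.9 FPKM (SD, n = 3), with a log2 fold change of 1.03 (SE 0.26, adjusted p in limma = 0.0556) and an exact permutation p of 0.1, which does not pass the limit. It passed without line 199 (log2 fold change 1.23, limma adjusted p = 0.0256) and with array weights (limma adjusted p = 0.0207), and over its 15 alternatives the adjusted p reached 0.189.

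*Lama3* encodes the alpha 3 chain, the partner of the beta 3 chain, and lies on chromosome 18. It had 18.9, 20.7 and 11.02 FPKM in MEC, and 12.0, 6.64 and 0.412 FPKM in lines 199, 233 and 336. Line 199 was inside the range of MEC, line 233 was below it, and line 336 held 2.44% of the MEC mean. The log2 fold change was -1.74 (SE 0.80, adjusted p in limma = 0.216, exact permutation p = 0.2), and it was -0.80 without line 336 and -2.40 without line 199. The group means were 16.9 ± 5.15 and 6.33 ± 5.78 FPKM (SD, n = 3), and the groups overlapped.

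The remaining laminin members, *Lamb1* and *Lamc1*, encode the beta 1 and gamma 1 chains that occur in most laminins outside the skin. *Lamb1* (chromosome 12, 31265234 to 31329644) had 44.4, 52.3 and 38.8 FPKM in MEC, and 71.5, 52.2 and 33.9 FPKM in the lines. Its lines spanned the MEC range on both sides, and the log2 fold change was 0.16 (SE 0.29, adjusted p in limma = 0.742), with the sign changing without line 199. *Lamc1* (chromosome 1, 153218922 to 153332786) had 33.95, 34.2 and 21.2 FPKM in MEC, and 36.1, 15.7 and 16.1 FPKM in the lines. Line 199 was above the MEC range and the other lines below it, with a log2 fold change of -0.45 (SE 0.37, adjusted p in limma = 0.455).

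*Col17a1* (chromosome 19, 47646344 to 47692094) divided the lines most sharply. Collagen XVII had 30.6, 27.8 and 18.2 FPKM in MEC and 32.2 FPKM in line 199, but 0.0391 FPKM in line 233 and 0.549 FPKM in line 336. Line 199 exceeded every MEC preparation, while the other lines held 0.153% and 2.15% of the MEC mean. The log2 fold change over the 3 lines was -2.79 (SE 1.27, adjusted p in limma = 0.211, exact permutation p = 0.4). Without line 199 it was -4.36 (limma adjusted p = 0.00217). The basal keratins differed between the lines in the same order of size, with *Krt5* at 608, 1.33 and 15.3 FPKM and *Krt14* at 521, 7.36 and 23.97 FPKM in lines 199, 233 and 336, against 201 to 435 and 289 to 460 FPKM in MEC. *Trp63*, which encodes the basal factor p63, had 15.6, 0.0633 and 4.47 FPKM in the lines and 7.94 to 11.3 FPKM in MEC. The part of the basal cell content in the *Col17a1* difference was not tested.

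*Itga6* (chromosome 2, 71745616 to 71858416) was the highest of the 9 genes in every MEC preparation and in lines 199 and 233. It had 123, 124 and 93.5 FPKM in MEC, and 96.6, 85.4 and 21.5 FPKM in the lines, with a log2 fold change of -0.98 (SE 0.56, adjusted p in limma = 0.298), which was -0.31 without line 336. Line 199 was inside the MEC range, line 233 was 75.2% of the MEC mean, and line 336 was 18.9% of it. *Itgb4* (chromosome 11, 115974709 to 116008412), which encodes the partner chain of the alpha 6 integrin, had 65.8, 76.4 and 45.5 FPKM in MEC, and 44.5, 63.3 and 20.5 FPKM in the lines. Line 199 was just under the lowest MEC value, line 233 was inside the range, and line 336 was 32.7% of the MEC mean, with a log2 fold change of -0.65 (SE 0.42, adjusted p in limma = 0.362).

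*Dst* (chromosome 1, 33908225 to 34308661) had the smallest difference of the group means. Dystonin had 38.8, 43.4 and 32.01 FPKM in MEC, and 38.2, 27.9 and 50.9 FPKM in the lines, so that line 336 was the highest of the 6 libraries and line 233 the lowest. The log2 fold change was 0.0041 (SE 0.25, adjusted p in limma = 0.993), and its sign changed in 6 of 15 alternatives. The annotation gives *Dst* 14 protein-coding transcripts, which include isoforms of epithelium, muscle and nerve, and a value per gene does not separate them. None of the 4 hemidesmosome genes was called in limma, and none had an unadjusted p under 0.05.

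Each line was also set against the MEC group separately, with no test since each is 1 library. A gene was counted where the line lay outside the MEC range and more than 0.75 from the MEC mean of log2(FPKM + 1). In line 199 this held for 1 member, *Lamb3*, which was lower (16.9% of all tested genes were lower and 12.8% higher in this line). In line 233 it held for *Lama3*, *Lamb3*, *Lamc1* and *Col17a1* in the lower direction (17.5% of all tested genes) and for *Lama5* in the higher direction (9.92%). In line 336 the same 4 genes and *Itga6* and *Itgb4* were lower (18.2% of all tested genes), and *Lama5* was higher (11.2%). The median difference of the 9 genes from the MEC mean was 0.02, -0.43 and -1.53 in lines 199, 233 and 336, against 0.0086, 0.0016 and 0.02 over all tested genes. Line 336 was the lowest of the lines in 5 of the 9 genes, and in 31.5% of all tested genes.

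**Figure D2:**
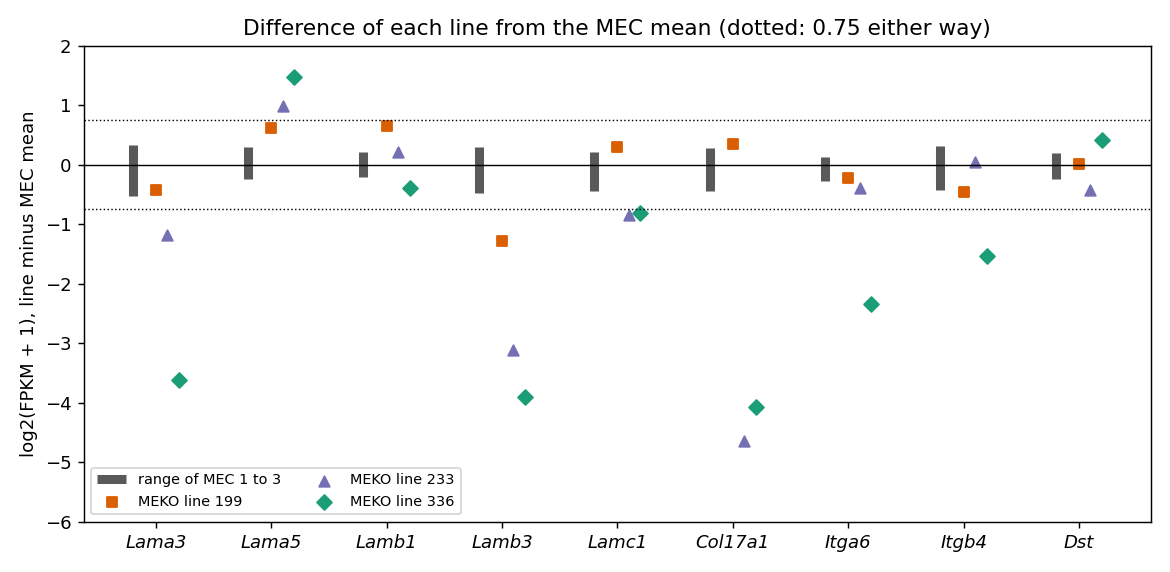
Difference of log2(FPKM + 1) between each MEKO line and the MEC mean for the 9 genes, with the range of MEC 1 to 3 as a grey bar and dotted lines at 0.75 in either direction. Line 336 lies furthest below the MEC range in *Lama3*, *Lamb3*, *Itga6* and *Itgb4*, whereas line 199 leaves the band between the dotted lines in *Lamb3* alone.

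The preparations of MEC were not alike in these genes. MEC 3 was the lowest of the 3 in all 9 members, and in 39.3% of all tested genes. MEC 3 also had the lowest summed basal markers (1570 FPKM, against 2561 and 2865 in MEC 1 and 2) and luminal markers (5408 FPKM, against 7277 and 8965). Without MEC 3 the log2 fold change of *Lamb3* was -3.01. The part of the cell make-up of the preparations in these levels was not tested.

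The chains of laminin were then set side by side within each class, as shares of the summed FPKM of the class. *Lama5* held 58.9%, 64.1% and 67.2% of the alpha chains in MEC, and 81.7%, 92.5% and 99.2% in lines 199, 233 and 336. *Lama3* held 28.6%, 26.5% and 21.7% in MEC and 15.5%, 7.51% and 0.359% in the lines. Most of the remainder in MEC was *Lama4*, an alpha chain of mesenchymal and endothelial basement membranes, at 8.09% to 10.3%. The groups did not overlap in the share of *Lama5* or of *Lama3*, though they overlapped in the FPKM of *Lama3*. These shares are parts of the same sum and are not separate results. How often shares of other genes lie apart was not computed.

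Among the beta chains the order was exchanged. *Lamb3* held 55.4%, 53.4% and 45.3% in MEC and was the leading beta chain in each preparation, but it held 22.3%, 7.39% and 5.47% in the lines. *Lamb1* led in each line, with 69.5%, 67.6% and 63.9%, against 38.0%, 39.5% and 43.1% in MEC. *Lamb2*, which encodes the beta 2 chain, held 8.21%, 25% and 30.6% in the lines and 6.59% to 11.6% in MEC.

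Ratios between chains of a shared protein, between alternative beta chains and between hemidesmosome genes were tested as log2 ratios of FPKM + 1, by 7 exact permutation tests (two-sided, smallest p = 0.1, or 0.175 after Benjamini-Hochberg adjustment), so none could pass 0.05. The *Lamb3*/*Lamb1* log2 ratio was 0.54, 0.43 and 0.07 in MEC, and -1.60, -2.99 and -3.16 in the lines. These groups lie apart by a mean of -2.93 (exact permutation p = 0.1). The *Lama5*/*Lamc1* log2 ratio was 0.46 ± 0.25 in MEC and 1.95 ± 1.03 in MEKO (SD, n = 3, exact permutation p = 0.1), with line 199 at 0.79 close above the MEC range. The groups also lay apart for *Lamb1*/*Lamc1* (0.61 ± 0.23 and 1.22 ± 0.39) and for *Lama3*/*Lamb3* (-1.75 ± 0.04 and -0.72 ± 0.84), each with an exact permutation p of 0.1. For *Lamb1*/*Lamc1* the gap was narrow, from 0.84 in MEC 3 to 0.97 in line 199. In MEC the *Lama3*/*Lamb3* ratio was nearly constant, with 0.270 to 0.293 *Lama3* FPKM for each FPKM of *Lamb3*, and in the lines it was 0.520, 1.16 and 0.142. In these plain ratios line 336 was below the MEC range and lines 199 and 233 were above it. For *Lama3*/*Lamb3* the groups therefore lay apart only with 1 added to each FPKM. How often ratios of other genes lie apart was not computed. Single genes did so in 18.7% (lower) and 18.5% (higher) of all tested genes, and *Lamb3* and *Lama5* were among them.

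The hemidesmosome ratios overlapped between the groups. *Itga6* exceeded *Itgb4* by 1.62 to 2.06 times in MEC, and by 2.17, 1.35 and 1.05 times in lines 199, 233 and 336 (exact permutation p = 0.4). *Col17a1* was at 0.364 to 0.465 FPKM for each FPKM of *Itgb4* in MEC, and at 0.724, 0.000618 and 0.0268 in the lines (exact permutation p = 0.4). *Dst*/*Itgb4* was at 0.568 to 0.704 in MEC and at 0.859, 0.440 and 2.49 in the lines (exact permutation p = 0.6), and its log2 difference turned sign without line 336. Line 233 held *Itga6*, *Itgb4* and *Dst* at 73.2% to 101% of the MEC mean with *Col17a1* near 0, and line 336 held *Dst* at 134% with the other 3 at 2.15% to 32.7%.

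**Figure D3:**
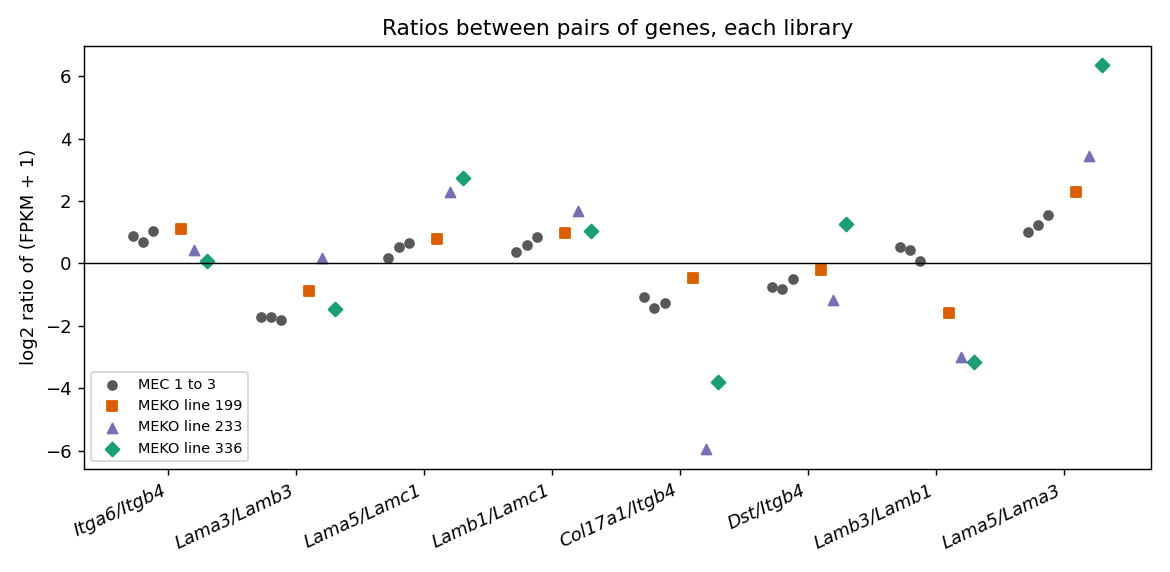
Log2 ratio of (FPKM + 1) between pairs of laminin or hemidesmosome genes in each library, with MEC 1 to 3 as grey dots and the MEKO lines as coloured symbols. The last ratio was added after the values were seen. *Lamb3*/*Lamb1* and *Lama5*/*Lamc1* lie apart between the groups, and *Col17a1*/*Itgb4* divides line 199 from lines 233 and 336.

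The ratio of the alpha chains was added after the values were seen and is given with no test. *Lama5* exceeded *Lama3* by 2.06, 2.42 and 3.09 times in MEC, and by 5.26, 12.3 and 277 times in lines 199, 233 and 336.

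Sequences around the starts of *Col17a1*, *Lamb3* and *Lama5* are shown because, of the members with such sequence at hand, these differed most between groups or lines. Each window runs from 250 bases before to 50 after a RefSeq start on GRCm38.p6, and 5 of the 9 members had such windows, 7 in all. Capitals mark matches on either strand to 5 motifs: TGANTCA (an AP-1 element), CAGGTG (an E-box), CCAAT (the CAAT box), TATAAA (the TATA box) and GGGCGG (a GC box). The *Col17a1* window is chr19:47691993-47692292 on the minus strand, that of *Lama5* is chr2:180225810-180226109 on the minus strand, and that of *Lamb3*, the later of its 2 starts, is chr1:193301993-193302292 on the plus strand.
Col17a1: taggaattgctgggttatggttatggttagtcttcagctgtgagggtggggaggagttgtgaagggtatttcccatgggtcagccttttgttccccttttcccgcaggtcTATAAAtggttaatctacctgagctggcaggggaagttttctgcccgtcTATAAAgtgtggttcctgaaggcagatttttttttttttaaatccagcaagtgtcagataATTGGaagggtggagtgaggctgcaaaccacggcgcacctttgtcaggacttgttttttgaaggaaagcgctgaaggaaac
Lama5: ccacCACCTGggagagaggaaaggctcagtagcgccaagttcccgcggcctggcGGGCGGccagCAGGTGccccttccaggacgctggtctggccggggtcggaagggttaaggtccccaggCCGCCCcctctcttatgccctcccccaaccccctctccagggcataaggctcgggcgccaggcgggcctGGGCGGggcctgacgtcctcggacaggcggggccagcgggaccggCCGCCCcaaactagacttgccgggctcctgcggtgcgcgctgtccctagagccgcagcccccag
Lamb3: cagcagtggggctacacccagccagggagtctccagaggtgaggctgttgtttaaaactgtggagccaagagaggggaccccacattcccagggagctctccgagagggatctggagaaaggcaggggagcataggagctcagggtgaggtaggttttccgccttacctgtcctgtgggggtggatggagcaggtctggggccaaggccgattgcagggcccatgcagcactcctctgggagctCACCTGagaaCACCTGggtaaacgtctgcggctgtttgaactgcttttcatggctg

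The *Col17a1* window holds 2 matches to TATAAA, a motif present in 13.6% of the 32851 windows of all genes, and 1 to CCAAT (37.4% of windows). It is 46.3% G or C with 5 CG pairs, where the median window has 52.7% and 7. The *Lama5* window holds 4 matches to GGGCGG (35.7% of windows) and 2 to CAGGTG (20.2% of windows), is 72.7% G or C and has 24 CG pairs. The *Lamb3* window of the later start holds 2 matches to CAGGTG and has 5 CG pairs in 59.3% G or C. The window of its earlier start, which is not printed, holds no match to any of the 5 motifs and has 2 CG pairs in 59.3% G or C. None of the 7 windows holds TGANTCA, which occurs in 7.81% of all windows. A match is a run of letters and not evidence that a factor binds there.

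Genes that neighbour the members were examined after the values were seen. The 29 tested protein-coding genes within 2 megabases of *Col17a1* had a median difference from the MEC mean of 0.29, 0.10 and 0.48 (log2) in lines 199, 233 and 336. Its nearest tested neighbours, *Slk* and *Sfr1*, were at 35.7 and 81.4 FPKM in line 233, against 23.4 to 30.3 and 86.6 to 88.7 FPKM in MEC. Around *Lama5* (29 genes) the medians were 0.25, 0.02 and 0.12. Around *Lamb3* (18 genes) they were -0.47, -0.54 and -0.28, and around *Lama3* (13 genes) they were -0.25, -0.44 and -0.23.

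Profiles over the 6 libraries were compared by the root mean square distance of log2(FPKM + 1), each gene centred on its own mean. This distance is small for any pair of flat genes, and each profile holds the difference between groups, so it is a description. Nearest to *Col17a1* were *Fkbp10* (0.18), which encodes a chaperone of collagen, and *Krt14* (0.34). Nearest to *Lamb3* were *S100a16* (0.18) and *Gm14005* (0.30). *Lama3* was nearest to *2010300F17Rik* (0.17) and *Cd44* (0.29), and *Gtpbp6* (0.12) was among the nearest to *Lama5*. *Itga6* was nearest to *Rab27b* (0.19) and *Arhgap29* (0.20), and *Itgb4* to *Fosb* (0.10) and *Tmem71* (0.16). *Lamb1* was nearest to *Papd7* (0.07) and the joined entry of *Bbs12* and *Fgf2* (0.08), *Lamc1* to *Noc2l* (0.09) and *Txndc5* (0.11), and *Dst* to *Ccdc41* (0.07) and *2310003H01Rik* (0.09). Among the members themselves the closest pair was *Itga6* and *Itgb4* (0.36) and the most distant was *Lama5* and *Col17a1* (2.61).

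Related genes of laminin adhesion were read from 5 lists with 66 genes in all, of which 65 were found and 52 were tested. Of these, 11 were called lower and 1 higher, or 21.2% and 1.92%, beside the 7.26% and 2.64% of all tested genes, and their median log2 fold change was -0.83. Among those called lower, *Lama4*, *Col15a1* and *Itga1* averaged under 1 FPKM in the lines. These genes passed the filter of a mean of 1 FPKM only through MEC, so their calls had 1 direction open. The count of lower genes lay between 3 and 24 as each library was left out, with 3 without MEC 1 or MEC 2, 5 without MEC 3, 7 without line 233 and 24 without line 199.

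Of the other laminin chains, *Lama4* fell from 5.94 ± 1.12 to 0.207 ± 0.227 FPKM (SD, n = 3), with a log2 fold change of -2.53 (limma adjusted p = 0.00363). It was called in all 14 of its alternatives. The endothelial list was also lower in the lines than in MEC (0.209 to 2.06 against 2.45 to 22.5 FPKM), and its part in the lower values of *Lama4*, *Col15a1*, *Mcam* and *Itga1* was not tested. *Lamb2* had 9.19 ± 1.38 and 14.7 ± 5.59 FPKM (limma adjusted p = 0.29). *Lama1*, *Lama2* and *Lamc3* reached at most 1.79 FPKM in any library and were not tested.

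None of the 8 tested genes of the other hemidesmosome and anchoring list was called in limma, and 3 had an unadjusted p under 0.05, all lower, where 28.2% of all tested genes had such a p in either direction. *Plec*, which encodes plectin, the linker from the beta 4 integrin chain to keratin, had 16.8 ± 1.04 FPKM in MEC and 13.5 ± 5.28 FPKM in MEKO (limma adjusted p = 0.429). *Cd151*, a tetraspanin bound to laminin-binding integrins, had 147 to 149 FPKM in MEC, and 53.3, 85.0 and 105 FPKM in lines 199, 233 and 336 (limma adjusted p = 0.0709). *Fermt1*, which encodes the epithelial integrin activator kindlin, had 31.96 to 57.6 FPKM in MEC, and 14.8, 7.90 and 0.855 FPKM in the lines (limma adjusted p = 0.0705). *Itga3*, the alpha chain of the other main epithelial laminin integrin, had 118 to 206 FPKM in MEC and 181, 250 and 203 FPKM in the lines (limma adjusted p = 0.381). The share of *Itga6* in the sum of *Itga3* and *Itga6* was 37.4% to 44.3% in MEC, and 34.8%, 25.5% and 9.57% in lines 199, 233 and 336.

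Of 17 tested genes of other basement membrane proteins, 2 were called, both lower (11.8%, beside 7.26% of all tested genes). *Agrn*, which encodes the proteoglycan agrin, fell from 99.8 ± 9.37 to 45.6 ± 9.85 FPKM (log2 fold change -1.13, limma adjusted p = 0.0204), and *Col15a1* from 7.71 ± 2.06 to 0.611 ± 0.911 FPKM (-2.55, limma adjusted p = 0.0164). Both calls were lost without any 1 of the MEC preparations, and that of *Col15a1* also without line 336. *Col15a1* passed the filter of a mean of 1 FPKM only through MEC, so its call had 1 direction open. The share of 11.8% includes it and is not read as an excess. *Col4a1*, the main chain of the collagen IV network, had 23.7 to 54.1 FPKM in MEC, and 53.1, 2.88 and 0.660 FPKM in lines 199, 233 and 336 (limma adjusted p = 0.248). *Nid1*, whose product nidogen bridges laminin and collagen IV, had 9.79 to 16.0 FPKM in MEC, and 42.3, 0.0600 and 1.39 FPKM in the lines (limma adjusted p = 0.482). In this list line 199 counted 4 lower and 6 higher genes against MEC, whereas line 233 counted 11 lower and 3 higher and line 336 counted 10 lower and 1 higher. Over all tested genes 16.9%, 17.5% and 18.2% were lower and 12.8%, 9.92% and 11.2% higher in these lines.

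Of 14 tested genes of laminin receptors and of enzymes that act on them, 4 were called lower and none higher in limma. No higher gene had an unadjusted p under 0.05. The lower share was 28.6%, beside 7.26% of all tested genes. *Itgb1*, the beta chain shared by most laminin integrins, fell from 603 ± 12.0 to 222 ± 125 FPKM (log2 fold change -1.57, limma adjusted p = 0.0426). *Mcam*, an adhesion molecule that binds laminins with the alpha 4 chain, fell from 80.9 ± 9.30 to 5.70 ± 4.43 FPKM (-3.80, limma adjusted p = 0.00484), and *Sdc4*, a syndecan, from 241 ± 17.5 to 98.0 ± 17.6 FPKM (-1.30, limma adjusted p = 0.00803). *Itga1*, the alpha chain of an integrin for collagen and laminin, fell from 1.88 ± 0.709 to 0.151 ± 0.234 FPKM (-1.31, limma adjusted p = 0.0474). It was near 0 in the lines (0.421, 0.0291 and 0.00353 FPKM) and passed the filter of a mean of 1 FPKM only through MEC. *Mcam* and *Sdc4* were called in all 15 alternatives, and *Itgb1* and *Itga1* in 8 of 15 and 7 of 14. *Itgb1* was not called without any 1 of MEC 1 to 3, line 233 or line 336, nor *Itga1* without any 1 of MEC 1, MEC 2, line 233 or line 336.

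Of 12 tested genes of enzymes that trim laminin chains or shed collagen XVII, 4 were called lower and 1 higher. These are 33.3% and 8.33%, beside 7.26% and 2.64% of all tested genes. *Mmp9* fell from 70.6 ± 36.6 to 1.38 ± 2.33 FPKM (log2 fold change -5.20, limma adjusted p = 0.011) and *Furin*, a proprotein convertase, from 60.0 ± 5.73 to 25.4 ± 6.41 FPKM (-1.24, limma adjusted p = 0.0214). *Adam10*, a sheddase, fell from 58.4 ± 6.01 to 31.1 ± 5.20 FPKM (-0.89, limma adjusted p = 0.0268), and *Bmp1*, a protease of matrix proteins, from 63.4 ± 8.41 to 27.7 ± 9.97 FPKM (-1.22, limma adjusted p = 0.0487). *Pcsk6*, another convertase, rose from 6.87 ± 1.69 to 20.6 ± 5.29 FPKM (1.45, limma adjusted p = 0.0217). *Bmp1* was called in 6 of 15 alternatives and the other 4 genes in 10 to 13 of 15, and each of the 5 calls was lost without MEC 1 or without MEC 2. Without MEC 3 those of *Furin*, *Adam10*, *Bmp1* and *Pcsk6* were lost, without line 233 those of *Adam10*, *Bmp1* and *Pcsk6*, and without line 336 that of *Adam10*.

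**Figure D4:**
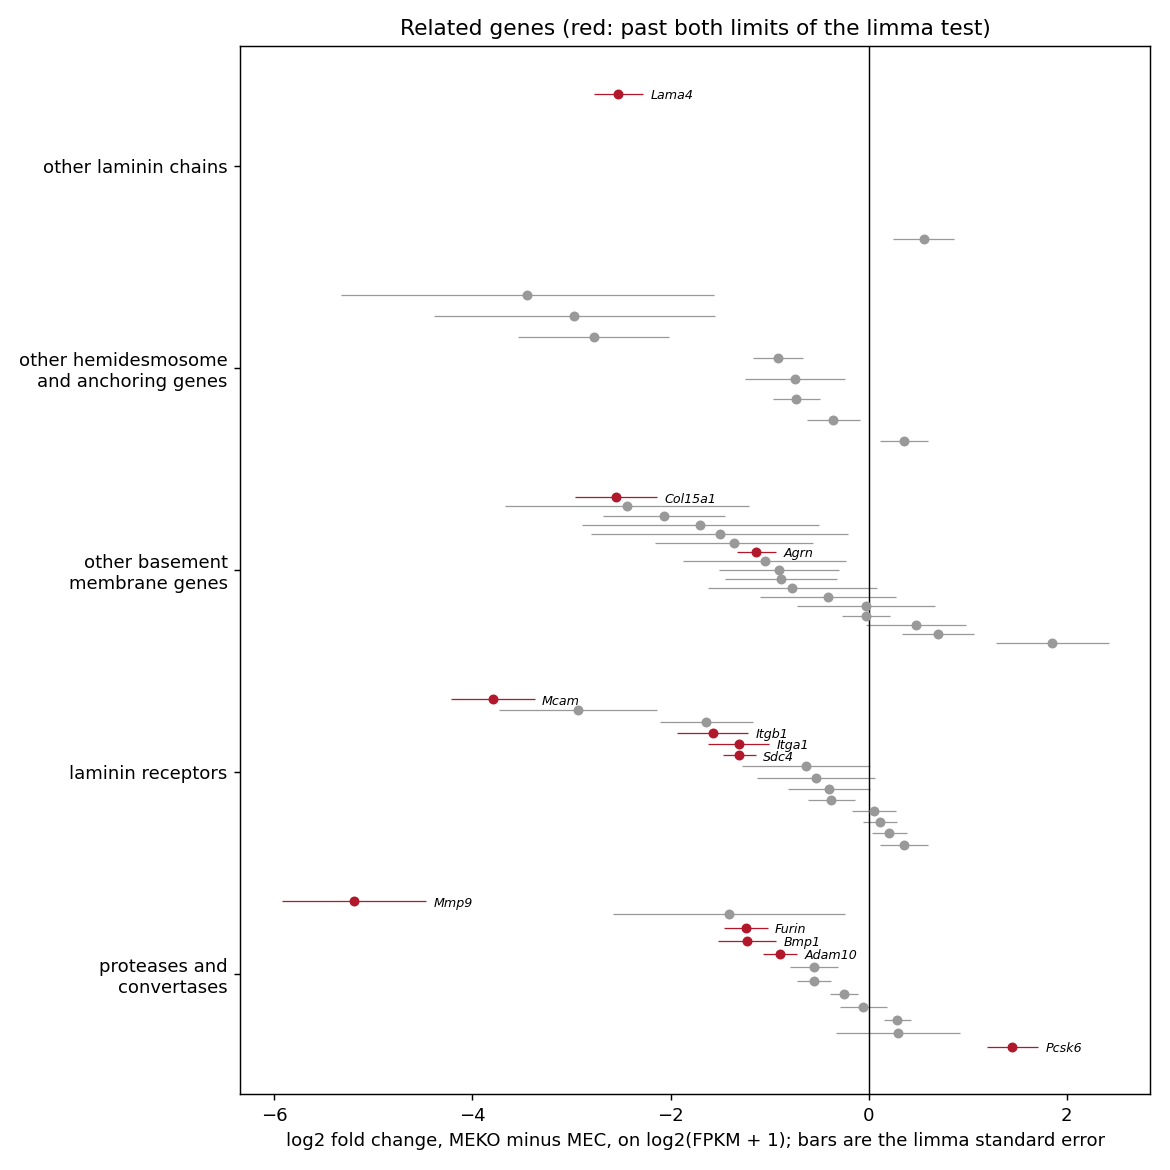
Log2 fold change (MEKO minus MEC, on log2(FPKM + 1)) with its limma standard error for the tested genes of the 5 related lists, 1 point a gene, with genes past both limits in red and named. The 11 genes called lower lie between -5.20 and -0.89, and *Pcsk6* is called higher at 1.45.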

How the data were processed

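RNA was sequenced from 3 MEC preparations and 3 MEKO tumor cell lines, grouped by sample title. Libraries were read from both ends (150 bp). After trimming (Trimmomatic), the authors mapped reads to mm10 (GRCm38) with TopHat2 2.0.14 and Bowtie2 and ran Cufflinks 2.2.1. The deposited table holds FPKM per gene and library. Of 37755 entries, 2 held no values. Where a symbol had several entries, that with the highest mean was used.

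The 12461 genes whose FPKM averaged 1 or more were tested on log2(FPKM + 1) in R 4.3.3 with limma 3.58.1 (trend in the variance prior). P-values were adjusted by Benjamini-Hochberg over all tested genes. A gene was called with an adjusted p under 0.05 and a log2 fold change beyond 0.75. The code was tested on simulated data. FPKM is not a count, so no count model was used and no counting interval could be given. The study describes the MEC preparations and the MEKO lines as independent. Nothing in the labels gives a batch or date.

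The members and lists were chosen with earlier results of these data known. Named genes are the members, *Mapk8* and *Mapk9*, called genes of each related list (at most 6 a direction), other laminin chains, the keratins *Krt5*, *Krt14*, *Krt8* and *Krt18*, *Trp63*, and the 2 nearest profiles of each member. Other names (*Plec*, *Cd151*, *Fermt1*, *Itga3*, *Col4a1*, *Nid1*, *Fbln2*, *Col4a5*, the neighbours, the fibroblast markers and the remaining basal markers) were chosen after their values were seen. Of the listed genes 1, *Eppk1*, was not matched. Some genes that these rules would name are not reported here, and the lists were counted without them. Positions are from GENCODE M21. Promoter windows are from RefSeq on GRCm38.p6.

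Alternatives were a pseudocount of 0.1, no filter on low values, a filter at a mean FPKM of 5, upper-quartile scaling, quantile normalization, no trend, array weights, summed entries per symbol, the adjusted p alone, and each library left out in turn. Every member and every related gene found had 1 entry. Summed entries and the adjusted p alone therefore could not lose a call of these genes, though they count among the alternatives.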

Additional observations from a re-analysis of the deposited data

How the results depend on the processing

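No paired analysis was possible because the replicate numbers of the groups (1 to 3 and the line numbers) are not shared. Members called lower numbered 1 as reported, 0 with a pseudocount of 0.1, with no filter on low values, with a filter at 5 FPKM, with upper-quartile scaling and with no trend, 3 with array weights (*Lama3*, *Lamb3* and *Col17a1*), and 0 to 2 as each library was left out. Members called higher numbered 0 as reported, 1 with array weights (*Lama5*), and 0 to 1 with libraries left out. Genes called lower over the whole table numbered 905, 501 with the filter at 5 FPKM (fewer genes tested) and 1378 with array weights, and those higher numbered 329 and 600 with array weights. With libraries left out they ranged from 251 to 1340 and from 49 to 546 (lowest without MEC 1, highest without line 199). Related genes called lower numbered 11, 7 with the filter at 5 FPKM, 21 with array weights and 3 to 24 with libraries left out, and higher 1, 3 with array weights and 0 to 3.

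The sign of *Dst* turned with upper-quartile scaling (-0.012), quantile normalization (-0.051) and array weights (-0.11), and as libraries were left out its log2 fold change ran from -0.20 to 0.22. That of *Lamb1* ran from -0.088 (without line 199) to 0.44. The *Dst*/*Itgb4* log2 difference ran from -0.0034 to 1.21, and the other 6 tested ratios kept their sign with a pseudocount of 0.1 and with each library left out, the settings run for them. The cause was not tested. *Lamc1*, *Itga6* and *Itgb4* kept their direction and were called under none of their 15 alternatives. The unknown depth limits *Col17a1* in lines 233 and 336 and *Lama3* in line 336, where values lie under 1 FPKM.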
